A study of Mus musculus with 2 samples.

Results

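Incomplete splice matches of the suffix kind are transcript models whose chain of introns equals the last introns of a longer transcript, so that the 3′ end of the splicing pattern is kept and at least 1 intron at the 5′ end is missing. They were taken as every row that the deposited long-read tables class as an incomplete splice match (ISM) with the subtype Suffix, leaving out spike-ins, with start positions from the deposited annotation files. They numbered 10387 of 56790 transcript models in replicate 1 and 13646 of 69026 in replicate 2, and together made 19332 distinct intron chains. All of them were spliced, and no mitochondrial gene held one.

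The models came from long-read RNA-seq of heart tissue from male B6CASTF1/J mice, an F1 hybrid strain, at 2 months of age, with 2 µg of RNA a library. There was 1 group and no treatment or mutation. The 2 libraries are labelled as biological replicates 1 and 2, but both carry the same donor identifier. Apart from the replicate number their descriptions are the same, with the same animal label and the same cDNA label. Whether they are separate animals is not clear, so the spread between them may be technical. They held 454069 reads in replicate 1 and 661958 in replicate 2, of which 430251 and 629896 fell in annotated nuclear genes, and levels in CPM (a read count scaled by those nuclear totals) are given per library. All 6 heart muscle markers were read, with 18241 and 21561 reads in sum. Of 4 skeletal muscle markers only Acta1, which heart muscle also uses, was read (180 and 203 reads), the 5 thymus and lung markers were at 0, and the liver markers gave 1 read in replicate 1 and 0 in replicate 2. The tissue is bulk heart, in which fewer cells of a type and less RNA per cell cannot be told apart.

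A messenger RNA begins at a promoter and is spliced from its 5′ end on, and a cDNA read that is primed at the poly(A) tail runs from the 3′ end towards the 5′ end. A read can therefore carry only the last introns of a transcript when copying ended early, when the RNA was already shortened, or when transcription began inside the gene. All of these give the same intron chain, and in these files they cannot be told apart by the class name. In heart, long sarcomere genes such as titin are known for shorter products made from internal promoters.

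The sequences around the starts of the most-read models show what such a model lacks. Each line gives 30 bases of the parent transcript that the model lacks, in lower case, and its first 30 bases, in capitals, read from the GENCODE M21 transcript named in the results and placed on GRCm38. Those shown are among the most-read suffix models whose start lies 100 bases or more from every annotated start and whose bases are coding on both sides.
Ndufa4, opening with exon 3 of 4 (chr6:11905233-11905262, minus strand): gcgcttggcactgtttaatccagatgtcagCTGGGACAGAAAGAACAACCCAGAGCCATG
Hrc, opening with exon 3 of 6 (chr7:45337887-45337916, plus strand): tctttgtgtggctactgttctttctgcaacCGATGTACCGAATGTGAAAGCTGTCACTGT
Ndufs7, opening with exon 7 of 8 (chr10:80255924-80255953, plus strand): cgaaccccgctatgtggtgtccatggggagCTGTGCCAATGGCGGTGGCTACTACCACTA
Pink1, opening with exon 4 of 8 (chr4:138318049-138318078, minus strand): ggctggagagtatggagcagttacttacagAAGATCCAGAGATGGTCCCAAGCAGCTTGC
Actn2, opening with exon 12 of 21 (chr13:12288628-12288657, minus strand): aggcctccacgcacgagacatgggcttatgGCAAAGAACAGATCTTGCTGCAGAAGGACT
Myl3, opening with exon 4 of 7 (chr9:110767908-110767937, plus strand): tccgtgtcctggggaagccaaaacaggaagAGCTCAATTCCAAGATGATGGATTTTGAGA
Myh6, opening with exon 26 of 39 (chr14:54950624-54950653, minus strand): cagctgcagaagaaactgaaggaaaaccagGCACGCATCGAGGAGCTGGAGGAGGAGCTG
Myl4, opening with exon 4 of 7 (chr11:104584439-104584468, plus strand): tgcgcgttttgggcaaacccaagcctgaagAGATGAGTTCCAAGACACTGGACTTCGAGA
In every line, the first capital is the first base of an annotated internal exon, so the boundary between lower case and capitals is a splice junction of the parent.

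Suffix models were the main kind of incomplete match. They made up 79.8% of ISM models and 72.1% of ISM reads in replicate 1, and 80.1% and 72.4% in replicate 2. In annotated nuclear genes they held 7.77% of reads in replicate 1 (95% Clopper-Pearson interval 7.69 to 7.85) and 8.0% in replicate 2 (7.93 to 8.07), with a mean of 7.88 ± 0.163% (SD, n = 2). Prefix models, the mirror case that keeps the first introns and lacks the last, held 0.410% and 0.406% of those reads, and known transcripts 75.7% and 75.6%. The intervals cover counting error only.

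Most suffix models were read once, and most suffix reads lay in a few models. Models with 1 read were 71.3% of suffix models in replicate 1 and 68.6% in replicate 2, and held 22.1% and 18.5% of suffix reads. The 366 and 535 models in annotated nuclear genes with 10 or more reads held 53.4% and 57.7%. A single read was worth 2.32 CPM in replicate 1 and 1.59 CPM in replicate 2, and a model with no read could have had up to 6.97 and 4.76 CPM, the level of 3 reads. The median model had 8 and 7 exons and was 2203 and 2119 bases long.

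The class name held for most members against the GENCODE M21 annotation. A known transcript whose last introns equal the chain was found for 9478 models in replicate 1 (91.2%) and 12367 in replicate 2 (90.6%). Of the remaining 909 and 1279 models, 882 and 1244 matched the end of a model classed NIC (annotated splice sites in a combination that the annotation lacks) or NNC (at least 1 splice site that the annotation lacks) of the same library. Another 12 and 19 models lay in antisense or intergenic loci with no annotated gene.

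In a small number of members the deposited first exon covered every missing intron. In 303 models of replicate 1 (3.20% of those with a known parent, 1018 reads) and 372 of replicate 2 (3.01%, 1481 reads), the first exon of the model ran unspliced across every intron it was missing. Of these, 295 and 358 began on an annotated transcript start, and 62 and 90 began after the annotated start codon. As deposited, such a model holds intron sequence that its parent splices out. Whether the reads themselves cover that sequence was not tested.

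The clearest of these in heart was Myl7, the atrial regulatory myosin light chain. Its 6-exon model had 58 reads in replicate 1 and 98 in replicate 2, which were 34.9% and 43.0% of the gene's reads, and began on the RefSeq start at position 5898782 of chromosome 11 in both libraries. The first 50 bases from that start are shown with the 22 bases of exon 1 in lower case and the part of intron 1 that the model keeps in capitals, from the RefSeq promoter table of GRCm38.p6.
Myl7 start (chr11:5898733-5898782, minus strand): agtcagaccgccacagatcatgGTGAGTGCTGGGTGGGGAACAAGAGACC
The 221-base intron 1 begins at the first capital and directly follows the start codon. Other models of this kind were those of Eif4g2, a translation factor of the eIF4G family, with 49 and 83 reads, and Atp5g3, a subunit c gene of ATP synthase, with 45 and 71. The thin filament calcium sensor Tnnc1 had 17 and 22 reads in a model that covered 2 introns. For 8893 and 11635 models with a known parent, 93.8% and 94.1%, the first exon covered none of the missing introns.

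Suffix models started mostly on the first base of an exon. In replicate 1, 66.1% of the models and 63.8% of their reads started on the first base of an internal annotated exon, against 66.8% and 64.2% in replicate 2. A further 21% of models and 25.6% of reads in replicate 1, and 20.3% and 26.5% in replicate 2, started on an annotated transcript start. Starts inside an exon were 11.8% of models in replicate 1 and 11.9% in replicate 2, and starts outside every annotated exon were 1.00% and 0.909%. The plot of start positions shows that the order of these positions was the same for models and for reads.

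**Figure D1:**
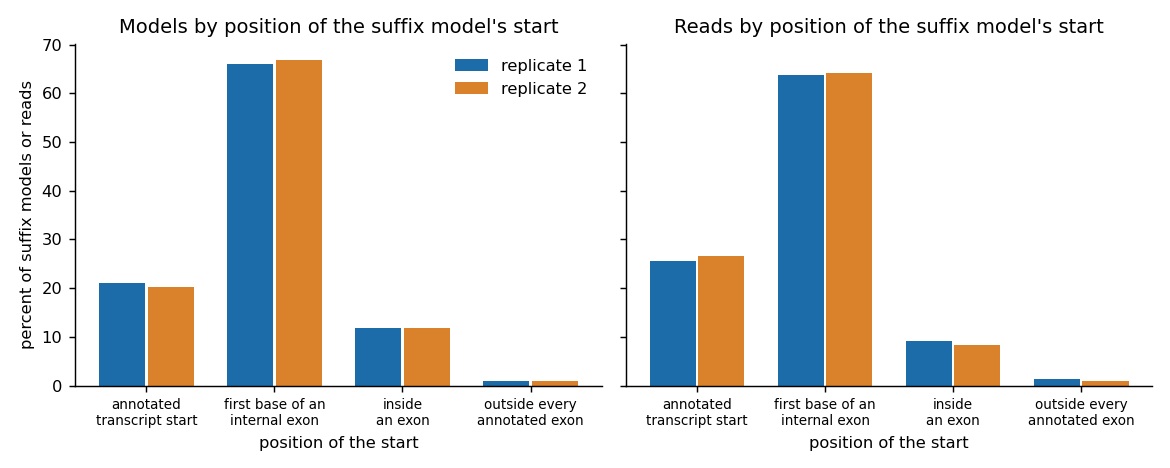
Percent of suffix models (left) and of their reads (right) by where the model starts, on the vertical axis in percent, for replicate 1 and replicate 2. Internal exon first bases hold 66.1% and 66.8% of models and annotated transcript starts 21% and 20.3%.

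The deposited starts sat on those boundaries to the base. In replicate 1, 2180 models started exactly on an annotated transcript start and only 6 within 1 to 10 bases of one, and in replicate 2 the numbers were 2769 and 10. Of starts off every annotated boundary, 1329 in replicate 1 and 1742 in replicate 2, 279 and 392 lay on the first base of an unannotated internal exon of another model of the same library. A deposited start therefore gives the exon that opens the model, and whether the reads themselves ended at that base is not analysed here.

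Where a start did lie inside an exon, the bases on both sides of it held more G than all positions of those exons. The first base of the model was G in 34.9% of models in replicate 1 and 35.6% in replicate 2. The base before it was G in 34.2% and 32.9%, against 26.9% and 26.7% of all positions. The pair GG ended on the base before the start in 11.7% of 819 such models in replicate 1 (9.60 to 14.1) and 10.1% of 1038 in replicate 2 (8.35 to 12.1), against 7.35% and 7.30% of all positions of the same exons. The run GGG did so in 4.15% (2.89 to 5.75) and 3.95% (2.85 to 5.32), against 1.82% and 1.78%. These were searched on the transcript strand only, among starts at least 10 bases into an exon, and runs of GGG also count as GG. Models of 1 gene share sequence, so the intervals are a description.

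Suffix models mostly ended where annotated transcripts end, and mostly did not begin where they begin. A 3′ end exactly on an annotated end was found for 88.6% of suffix models in replicate 1 and 88.8% in replicate 2, against 45.2% and 44.0% of prefix models. Such an end was not particular to suffix models, as NIC models had it in 89.0% and 88.6% and NNC models in 82.7% and 81.8%. A start on an annotated start was found for 21% and 20.3% of suffix models, against 94.8% and 93.3% of prefix models. Starts within 50 bases of a RefSeq start of any gene on the same strand (32851 promoters in GRCm38.p6) were fewer. They were 1.87% and 1.81% of suffix models, against 51.5% and 51% of prefix models and 53.6% and 52.6% of known transcripts. The keeping of the 3′ introns and the loss of 5′ introns are part of the definition. Deposited 3′ ends, like the starts, mostly sat on annotated positions to the base. In replicate 1, 9192 suffix models ended exactly on an annotated end and 9218 within 50 bases, and in replicate 2 12103 and 12131. The contrast with prefix models is therefore not independent of the definition.

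The missing part was usually a few introns and under a kilobase. Measured against the known parent that left fewest introns missing, the median model lacked 4 introns in both libraries, and 799 bases in replicate 1 and 827 in replicate 2, which were 29.2% and 30.4% of the parent's length. Exactly 1 intron was missing in 22.8% of models and 38.7% of reads in replicate 1, and in 21.2% and 37.9% in replicate 2. Those reads include the main models of Atp5b (1467 and 2546 reads) and Ndufa4 (1409 and 2147). By this rule the parent of each is a 3-exon transcript, while elsewhere they are placed on coding transcripts of 10 and 4 exons and lack more introns. At least 10 introns were missing in 25.2% and 25.8% of models, and at least 50 in 79 and 108 models. Among genes with models missing 50 introns or more were the laminin chain gene Lama5 with 10 and 10, the dynein heavy chain gene Dync1h1 with 8 and 13, and the calcium release channel gene Ryr2 with 4 and 4.

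Titin (Ttn), the molecular spring of the sarcomere, lacked most. Against its 192-exon transcript of 81843 bases, a 3-exon model with 1 read in replicate 1 lacked 189 introns and 80036 bases, and a 2-exon model with 1 read in replicate 2 lacked 190 introns and 80190 bases. All suffix reads of titin against that transcript, 33 in replicate 1 and 59 in replicate 2, opened with exons near the 3′ end. These were exons 187, 188, 189 and 190 in replicate 1, and exons 187, 189, 190 and 191 in replicate 2. Exon 187 opened 26 of the 33 and 45 of the 59.

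The annotated start codon lay upstream of most models. Among models with a coding parent, 90.4% in replicate 1 and 91.2% in replicate 2 began after the start codon, holding 80.7% and 82.2% of those models' reads. The median model kept 60.7% and 58.8% of the parent's coding bases, and 3.43% and 3.51% of models opened after the end of the coding sequence. Several of the most-read models were exceptions and kept the whole coding sequence, as described for Myh6, Atp5f1, Atp5j and Ndufa13.

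Suffix reads were spread over many genes and concentrated in a few. At least 1 suffix model was found in 4512 of 12682 annotated nuclear genes read in replicate 1 (35.6%) and in 5361 of 13310 in replicate 2 (40.3%). Of these genes, 4477 and 5318 were protein-coding, 2433 and 2680 had a single suffix model, and 95 and 151 had 10 or more. The gene with most suffix reads, Myh6, held 10.2% and 8.87% of them, and the top 10 genes held 32.1% in both libraries.

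Over the 3318 genes that had 20 reads or more in both libraries, the suffix share of a gene's reads had a median of 2.86% (quartiles 0.769 and 7.38), taking the mean of both libraries. No suffix read was found in 668 of these genes (20.1%), while 169 genes were over 25% and 60 over 50% in both libraries. The suffix share was above the prefix share in both libraries in 1829 genes and below it in both in 41.

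Genes with more exons had larger suffix shares. Grouped by the exons of the gene's most-read known transcript, the median share was 0 in both libraries for 632 genes of 2 to 4 exons. It was 2.29% in replicate 1 and 2.24% in replicate 2 for 1182 genes of 5 to 9 exons, and 4.17% and 4.55% for 1009 genes of 10 to 19. It was 9.68% and 11.1% for 269 genes of 20 to 29 exons, and 21.8% and 25.7% for 59 genes of 30 or more. More introns give more chains that count as a suffix, and genes are not independent replicates, so this order is given without a test.

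**Figure D2:**
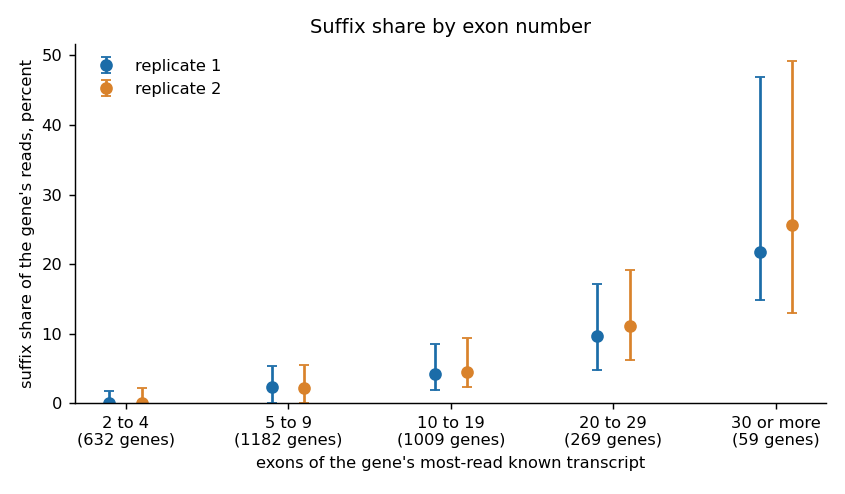
Suffix share of a gene's reads, in percent, by exon number of the gene's most-read known transcript, for replicate 1 and replicate 2. Points are medians over genes and bars run from the lower to the upper quartile, and medians go from 0 at 2 to 4 exons to 21.8% and 25.7% at 30 exons or more.

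Mitochondrial energy genes led the suffix reads beside the sarcomere. Atp5b, the catalytic beta subunit of ATP synthase, had 1597 suffix reads of 4204 in replicate 1 and 2757 of 6930 in replicate 2, which were 38% and 39.8% of the gene's reads. A single 2-exon model of 372 bases held 1467 and 2546 of them. It began at position 128089041 of chromosome 10, on an annotated transcript start 84 bases into exon 9 of the 10-exon transcript. Against that transcript it lacked the first 8 introns and kept 13.6% of the coding sequence.

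The NADH dehydrogenase and cytochrome oxidase associated subunit Ndufa4 had 1411 suffix reads of 2288 in replicate 1 and 2153 of 3358 in replicate 2. These were 61.7% and 64.1% of its reads, and all but 2 and 6 of them belonged to the 2-exon model shown above. Ndufs7, an iron-sulfur subunit of complex I, had 554 of 882 and 917 of 1378, and its 2-exon model shown above held 534 and 888. The model that opens with the next-to-last exon was thus the main suffix form of Atp5b, Ndufa4 and Ndufs7 in both libraries.

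Other ATP synthase and complex I genes had models that lacked only untranslated 5′ sequence of their parent. Atp5f1, a stalk subunit of ATP synthase, had 659 suffix reads of 670 in replicate 1 and 1081 of 1121 in replicate 2, and its 7-exon model held 631 and 1008. Ndufa13, a complex I subunit, had 568 of 575 and 865 of 886, and its 4-exon model held 564 and 864 and began 288 bases downstream of the RefSeq start. Atp5j, another stalk subunit, had 593 of 717 and 889 of 1082, and its 4-exon model held 558 and 834 and began 144 bases downstream of the RefSeq start. All of these top models kept the full coding sequence. Known transcripts held 0 reads in both libraries for Ndufa13, and 1 and 0 for Atp5f1, so the suffix models were nearly all of what was read.

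Hrc, the histidine-rich calcium binding protein of the sarcoplasmic reticulum, had 674 suffix reads of 728 in replicate 1 and 1073 of 1135 in replicate 2. Its 4-exon model, 255 bases long in replicate 1 and 242 in replicate 2, held 648 and 1014 reads and lacked 2156 of the 2411 bases of its parent. Pink1, a mitochondrial quality-control kinase, had 391 of 728 and 664 of 1163, with 356 and 598 in the model that opens with exon 4 of 8. How reads were divided between a gene and near-identical copies elsewhere was set in the authors' mapping and was not tested.

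**Figure D3:**
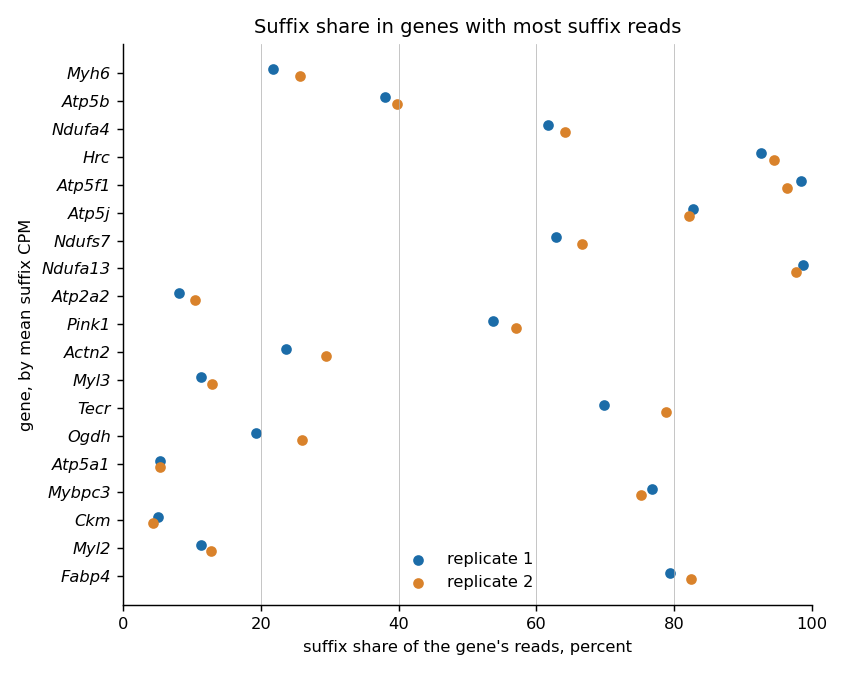
Suffix share of a gene's reads, in percent, in genes among the 20 with the highest mean suffix CPM, highest at the top, with a point for each replicate. Ndufa13 and Atp5f1 lie above 96% in both libraries, and Ckm and Atp5a1 lie at 4.25% to 5.30%.

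Shares above that of Atp5b were also found in genes with fewer reads. Fabp4, a fatty acid binding protein of fat and capillary cells, had 150 suffix reads of 189 in replicate 1 and 221 of 268 in replicate 2. Tecr, a reductase of very long chain fatty acid synthesis, had 166 of 238 and 323 of 410, and its main model had 121 and 237 reads. That model began outside every annotated exon in replicate 1 and 317 bases further downstream, on the first base of exon 2, in replicate 2. Cdh13, the GPI-anchored T-cadherin, had 77 of 102 and 110 of 143. In Cdh13, Mybpc3 and Tnnt2 no read was assigned to a known transcript in either library, so their shares are not set against a complete form. Cardiac myosin binding protein C (Mybpc3) had 159 of 207 and 227 of 302, and cardiac troponin T (Tnnt2) had 99 of 148 and 199 of 267.

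Myh6, the alpha myosin heavy chain of adult mouse heart, held the most suffix models as well as the most suffix reads. It had 146 suffix models and 3420 suffix reads of 15700 in replicate 1, and 183 models and 4470 reads of 17418 in replicate 2. In CPM these were 7949 in replicate 1 and 7096 in replicate 2, with a mean of 7523 ± 603 (SD, n = 2). The most-read model had 38 exons and 6025 bases, with 865 and 892 reads. It opened with exon 2 of the 39-exon transcript at position 54965899 of chromosome 14, lacked 88 bases and kept the whole coding sequence.

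The other Myh6 models opened all along the gene. Against the 39-exon transcript, 2442 suffix reads in replicate 1 and 3219 in replicate 2 opened with all 37 exons that a suffix model can open with. Exon 2 opened 35.4% and 27.7% of them. Next came exon 26 with 131 and 222 reads and exon 36 with 127 and 195, the second of these on an annotated transcript start at position 54944511. Reads with the complete chain of that transcript numbered 6111 and 6298, which were 71.4% and 66.2% of these and the suffix reads together. The most-read suffix model fits 2 known parents, and complete reads of the second parent are not counted here. Known reads with the same last intron, which 2 annotated transcripts share, numbered 7967 and 8341.

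Atp2a2, the SERCA2 calcium pump, showed a similar spread. Its 428 and 679 suffix reads on the 21-exon transcript opened with all 19 possible exons, and exon 8 led with 126 and 144. Actn2, the Z-disc cross-linker alpha-actinin, did not: exon 12 of 21, shown above, opened 236 reads in replicate 1 and 382 in replicate 2, which were 79.2% and 77.5% of those on its 21-exon transcript. The plot of opening exons sets these patterns side by side.

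**Figure D4:**
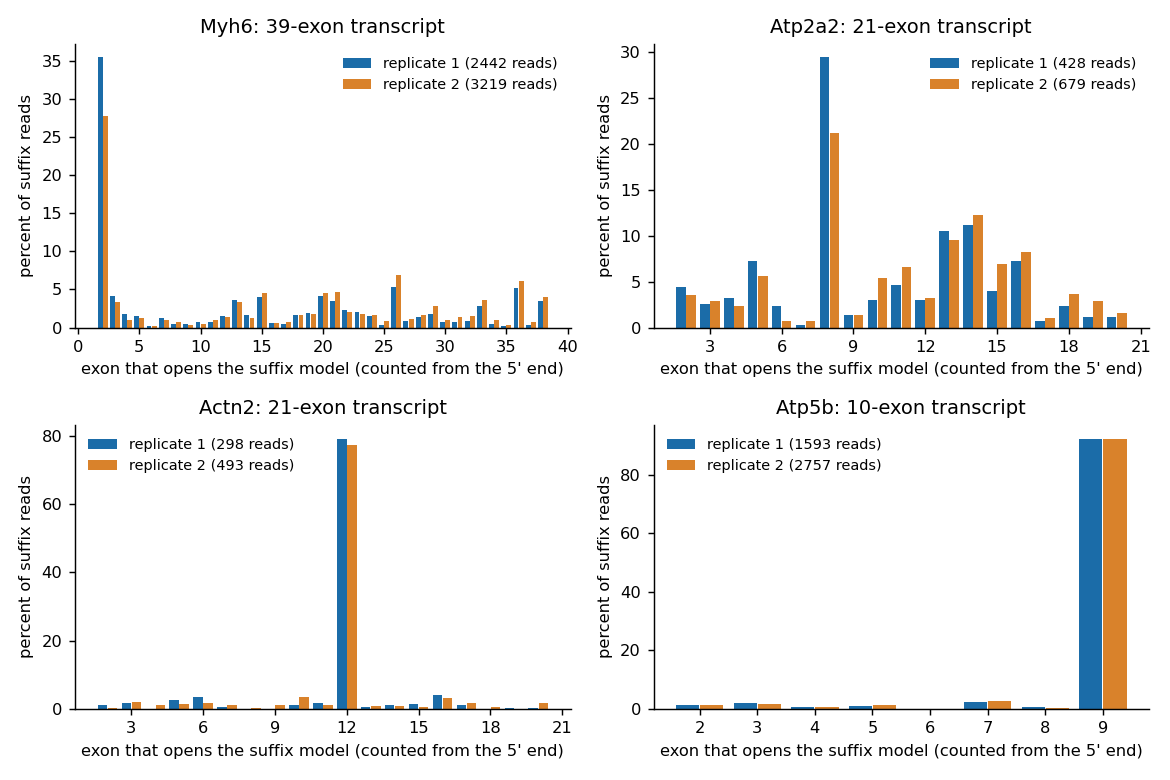
Percent of a gene's suffix reads, on the vertical axis, that open with each exon of the gene's reference transcript, counted from the 5′ end, for replicate 1 and replicate 2. Myh6 and Atp2a2 have reads on every possible opening exon, while exon 9 holds 92.1% and 92.3% in Atp5b and exon 12 holds 79.2% and 77.5% in Actn2.

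Across genes, 188 had at least 20 suffix reads in each library. The most-read suffix model was the same in both libraries in 153 of them (81.4%), and it held a median of 54.5% of the gene's suffix reads in replicate 1 and 55.1% in replicate 2. It held over 90% in both in 32 genes and under 25% in both in 27.

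Many Myh6 suffix models came in pairs that differ by 3 bases. The last intron ended at either of 2 acceptor sites, and the capitals mark the 3 bases that the second site adds to the last exon; lower case shows 30 bases before the junction and the bases after it, from GENCODE M21 transcripts.
Myh6 39-exon transcript (chr14:54941982-54942001, minus strand): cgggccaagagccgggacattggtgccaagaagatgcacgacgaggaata
Myh6 4-exon transcript (chr14:54941985-54942004, minus strand): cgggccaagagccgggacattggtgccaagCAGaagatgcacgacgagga
Among Myh6 suffix reads with either acceptor, the site that adds the 3 bases held 873 of 3414 in replicate 1 (25.6%, 24.1 to 27.1) and 1107 of 4465 in replicate 2 (24.8%, 23.5 to 26.1). In all other classes of Myh6 reads together it held 27.8% (27.0 to 28.6) and 28.3% (27.5 to 29.1). Chains equal to the annotated 4-exon transcript, which has the 3 bases, are classed known and had 61 and 69 reads. Among suffix reads of 4 exons the site therefore held only 0.775% and 1.5%, which lowers the suffix share. The 38-exon model with the 3 bases, 6028 bases long, had 302 and 307 reads. Complete chains with the 3 bases are classed NIC and not known, because the annotated 39-exon transcript has the other acceptor, and this splits 1 pattern of reads over more than 1 class name.

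Suffix models on annotated starts or upstream of their opening exon formed a second kind. Of 871 suffix models read in both libraries with at least 10 summed reads, 251 (28.8%) were of this kind by their start in replicate 1, and they held 6282 of 20566 reads in replicate 1 and 9904 of 31211 in replicate 2. Besides those of Atp5b, Atp5f1, Atp5j, Myh6 and Tecr, the last by its start in replicate 1 only, the most-read were those of Tango2, a gene of mitochondrial and lipid metabolism, with 103 and 127 reads, and Pam, a peptide-amidating enzyme that atrial muscle holds in quantity, with 105 and 108. Etfb, the beta subunit of the electron transfer flavoprotein, had 77 and 110, Ctsa, a lysosomal protease, 62 and 101, and Serping1, the C1 inhibitor, 60 and 97. Paip2, a regulator of the poly(A) binding protein, had 93 and 109 reads. An annotated start is a start of some GENCODE transcript and not necessarily of the main one. Of the 683 models of these 871 whose gene has a RefSeq start, 31 lay within 50 bases of it and 58 within 250, and the median model began 8218 bases downstream.

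The gene groups differed in how their reads were divided. Thick and thin filament genes had suffix reads in 12 of 12 genes and a pooled share of 15.8% in replicate 1 and 16.8% in replicate 2. The pooled share is set largely by Myh6, and the median gene had 11.3% and 13.6%, against 2.91% and 2.89% over all genes. The atrial essential light chain gene Myl4, which is on none of the lists, had 134 and 200 reads in the model shown above. Myl3, the ventricular essential light chain, had 279 suffix reads of 2461 and 468 of 3651, and Myl2, the ventricular regulatory light chain, 135 of 1198 and 246 of 1943. Z-disc, M-band and giant sarcomere genes had suffix reads in 17 of 19 genes, with a pooled share of 12.3% in both libraries. Tcap, with 0 suffix reads, held 2290 of the list's 6310 reads in replicate 1 and 3747 of 9588 in replicate 2. The median gene of the list had 16.9% and 14.2%. Within that list, the M-band gene Myom1 had 28.5% and 33.5%.

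Calcium handling genes had suffix reads in 12 of 13 genes, at a pooled 11.1% in replicate 1 and 12.7% in replicate 2. Hrc alone gave 674 of the list's 1248 suffix reads in replicate 1 and 1073 of 1949 in replicate 2, so it carried much of the pooled value. Triadin (Trdn), which anchors calsequestrin at the release channel, had 19.0% and 18.6%, and Atp2a2 8.05% and 10.4%. Oxidative phosphorylation genes reached a pooled 13.7% and 14.5% over 17 of 18 genes, while the median gene of the list had 1.42% and 2.27%, so that a few genes such as Atp5b and Ndufa4 carried the pooled value. Atp5a1, the alpha subunit of ATP synthase, had 5.28% and 5.30%.

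The other metabolic lists had lower pooled shares than oxidative phosphorylation genes but higher medians. Fatty acid oxidation genes had a pooled 5.96% in replicate 1 and 6.14% in replicate 2, with suffix reads in 17 of 17 genes and a median gene at 6.78% and 5.29%. Within them the fatty acid transporter gene Cd36 had 34.0% and 38.9%, and the medium-chain dehydrogenase gene Acadm 12.9% and 13.0%. TCA cycle and glycolysis genes had 5.52% and 5.31% over 20 of 20 genes, with a median gene at 4.38% and 3.46%. In that list the 2-oxoglutarate dehydrogenase gene Ogdh had 151 suffix reads of 785 and 282 of 1089. The 12 listed ribosomal protein genes had 2.86% and 4.25%.

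Matrix and fibroblast genes had a pooled 8.02% in replicate 1 and 7.06% in replicate 2, and 17 of 18 had suffix reads. The median of the 10 genes with enough reads was 17.4% and 12.6%. The basement membrane collagen gene Col4a1 had 47.6% and 53.5%, and the laminin gene Lamb2 33.7% and 36.3%, while the actin-severing gelsolin (Gsn) had 1.99% and 1.77% and the small proteoglycan decorin (Dcn) 1.88% and 0.929%. Adhesion and membrane skeleton genes had a pooled 9.64% and 8.96% and a median of 19.5% and 18.6%. In that list beta spectrin (Sptbn1) had 52.2% and 49.1% and desmoplakin (Dsp) 57.7% and 51.9%, while the muscle intermediate filament desmin (Des) had 1.51% and 2.08%. A list of genes chosen for shorter products had a pooled 23.2% and 21.3% over 14 of 15 genes. Whether each gene on it has an internal promoter was not checked. Titin had 61.8% and 60.0% in that list, from 34 of 55 and 63 of 105 reads, and the Z-disc gene Ldb3 34.5% and 26.6%. No titin read was assigned to a known transcript in either library, so its share is not set against a complete form. Whether suffix reads of these genes came from internal promoters was not tested. These lists were chosen with earlier results known, so the values describe them and are no independent test.

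How well a suffix model recurred depended on how often it was read. Matched by intron chain, 4701 models were suffix models in both libraries, which were 45.3% of those of replicate 1 and 34.4% of those of replicate 2 but held 80.3% and 77.7% of suffix reads. Of models with 1 read, 31.4% in replicate 1 and 20.0% in replicate 2 were found in the other library, against 98.4% and 98.5% of models with 10 reads or more. By the same match, 29.3% and 22.4% of prefix models, 20.5% and 15.7% of NNC models and 84.6% and 77.3% of known transcripts were shared.

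Starts of shared models were mostly the same base. Of 4697 shared models in annotated nuclear genes, 80.2% started on the same base in both libraries and 83.4% within 10 bases. The share within 10 bases was 93.9% of the 3745 models that sat on an annotated boundary in both libraries, 65.9% of the 414 that did so in neither, and 23.6% of the 538 that did so in 1 library only.

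The levels of single models were compared between the libraries by an exact binomial test, two-sided, which sets side by side 2 libraries and covers counting error only. Of 898 suffix models with at least 10 summed reads that were classed as suffix in either library, 0 passed both an adjusted p (Benjamini-Hochberg) under 0.05 and a 2-fold difference, adjusted over all 8523 spliced models tested. At an unadjusted p under 0.05 there were 56 suffix models (6.24%), against 563 of all spliced models (6.61%). Over all 8523 models 10 were called, which is 0.117%, with 7 higher in replicate 1 (0.0821%) and 3 higher in replicate 2 (0.0352%).

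Suffix models that passed the adjusted p alone, with no fold threshold, were 3, all under 2-fold, beside 41 of all 8523 spliced models. The 38-exon Myh6 model was at 2010 CPM in replicate 1 and 1416 CPM in replicate 2, a log2 difference of 0.51 (exact binomial test, adjusted p = 2.61e-10). Its 6028-base partner was at 702 and 487 CPM (log2 0.53, exact binomial test, adjusted p = 0.00375). The 2-exon Atp5b model was at 3410 and 4042 CPM (log2 -0.25, exact binomial test, adjusted p = 0.000107). These tests are against library totals, so they include any difference of the whole gene. Myh6 as a whole held 15700 of 430251 nuclear gene reads in replicate 1 and 17418 of 629896 in replicate 2. The 38-exon model of 6025 bases was 5.51% and 5.12% of the gene's reads, and the 2-exon Atp5b model 34.9% and 36.7% of its gene's. Differences beyond those of the gene were not tested for single models. The plot of both libraries shows how the spread narrows as reads increase.

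**Figure D5:**
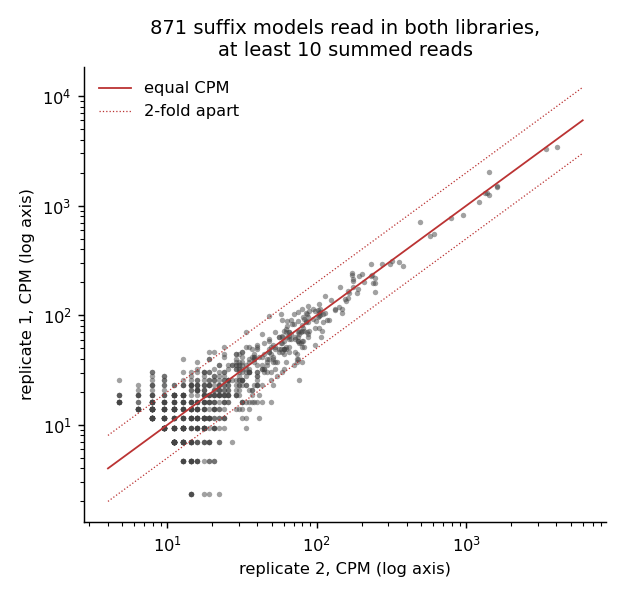
CPM of suffix models read in both libraries with at least 10 summed reads, replicate 1 on the vertical axis and replicate 2 on the horizontal axis, both logarithmic, with a line of equal CPM and dotted lines 2-fold apart. The most-read models lie close to the diagonal, with Atp5b at 3410 and 4042 CPM and the 38-exon Myh6 model at 2010 and 1416 CPM.

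The suffix share of a gene's reads was tested with Fisher's exact two-sided test over 2650 genes, and 3 genes (0.113%) differed by 10 percentage points or more with an adjusted p below 0.05, and are named the called genes. They were Gm5532, a gene model with no established role, with 0 suffix reads of 25 in replicate 1 and 21 of 38 in replicate 2 (Fisher's exact test, adjusted p = 0.00158). Coro6, a muscle coronin that binds actin, had 10 of 144 and 47 of 176 (Fisher's exact test, adjusted p = 0.00292). Ehbp1l1, an endocytic trafficking protein, had 48 of 133 and 25 of 168 (Fisher's exact test, adjusted p = 0.0128). Another 2 genes passed the adjusted p alone: Myh6, whose share was 21.8% in replicate 1 and 25.7% in replicate 2 (Fisher's exact test, adjusted p = 3.19e-13), and Atp2a2 at 8.05% and 10.4% (Fisher's exact test, adjusted p = 0.00375).

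In each of the 3 called genes, an intron chain read in both libraries had been given a different class in each. An 11-exon Coro6 chain had 33 reads as NIC in replicate 1 and 43 as ISM Suffix in replicate 2. A 2-exon Gm5532 chain had 13 reads as NNC and 21 as ISM Suffix. An 8-exon Ehbp1l1 chain had 18 reads as ISM Suffix and 23 under the subtype Both. Counting a chain as suffix in both libraries where either had classed it so, the shares were 52.0% and 55.3% for Gm5532, 29.9% and 26.7% for Coro6 and 36.1% and 28.6% for Ehbp1l1, and 0 genes were called by Fisher's exact test. Of 4831 chains read in both libraries and classed as suffix in at least 1, 134 (2.77%) differed in class.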

How the data were processed

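The files were read counts per transcript model, deposited for each library with a model annotation; per the deposited text files, reads were aligned to mm10 and assigned against GENCODE M21, and TALON is the source named for new models. Aligner and versions are not given in the sources used here. The authors' counts were used as deposited. Libraries were deposited separately; a pooled share is the suffix reads of a list over all its reads, within 1 library.

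Parents were GENCODE M21 transcripts on the same chromosome and strand whose last introns equal the model's chain. The gene was not required to match, and the parent leaving fewest introns missing was the main choice. RefSeq starts came from GRCm38.p6. CPM are reads over annotated nuclear gene reads. The same intron chain on the same chromosome and strand counted as the same model in both libraries. Exact binomial tests (fold changes with a pseudocount of 0.5 reads) and Fisher's exact tests were adjusted by Benjamini-Hochberg over all models with at least 10 summed reads or all genes having 20 reads or more in both libraries and 1 suffix read. Intervals are 95% Clopper-Pearson. Tools were Python 3.11.15, pandas 2.3.3, NumPy 2.4.6, SciPy 1.17.1 and matplotlib 3.10.9. The tests were tested on simulated data.

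Members and gene lists were chosen with earlier results of these data known. Named were the 20 genes with the highest mean suffix CPM, the 12 with the highest mean share among genes read 100 times or more in both libraries, the 12 most-read models, the 12 most-read models upstream of their opening exon or within 50 bases of an annotated start, called genes and the top 3 genes of each of 10 lists. Models that keep introns, Dcn, genes with most introns missing and Myh6 acceptors were named after their values were seen. Alternatives were other read minimums, windows, parents, totals and class rules. Some items that these rules name are not reported here.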

Additional observations from a re-analysis of the deposited data

How the results depend on the processing

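With models of at least 2 or 5 reads, the mean number of suffix models per library was 3638 and 1013, against 12017 with every model, and the mean share of reads was 6.71% and 5.74%, against 7.88%. That share was 9.11% over known and ISM models alone and 7.59% over all mouse reads. At 2 reads, 53.1% of suffix models and 86.7% of suffix reads were shared, against 39.9% and 79.0%. Counting starts of protein-coding transcripts only, 7.86% of models and 8.15% of reads lay within 50 bases of an annotated start, against 20.8% and 26.2%. The median number of missing introns was 6 with the longest-missing parent and 5 with the most-read parent, against 4, and the missing bases were 946 and 842.5, against 813. The median share over genes was 2.99% over known and ISM models and 3.03% without genomic models, against 2.90%. ERCC totals shifted the median log2 difference of all models to -0.26 and called 5 suffix models, all higher in replicate 2, and 46 of all models. With a chain counted as suffix where either library classed it so, a setting chosen after seeing the data, 0 genes were called against 3. The other 39 values stayed within the spread between replicates or within 1.5 times the count. They include the values with a replicate left out. For those this outcome was fixed in advance, because with 2 libraries each is the other library's own value, so they say nothing about stability.

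Leaving out a replicate leaves the other library's value. These ran from 10387 to 13646 models, 7.77% to 8.0% of reads, 34.4% to 45.3% of models and 77.7% to 80.3% of reads shared, 20.5% to 21.1% of models and 25.8% to 26.7% of reads near an annotated start, 88.7% to 88.9% of models near an annotated end, 90.4% to 91.2% of models and 80.7% to 82.2% of reads lacking the start codon, 799 to 827 bases missing, and a median gene share of 2.89% to 2.91%. No paired analysis was possible because there is 1 group. Depth limits single-read models most.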
